A study of Caenorhabditis elegans with 2 samples.

Results

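The weaker LIN-40 regions described here are 3750 of 30000 candidate regions called from both samples pooled on the ce11 build (WBcel235) of the Caenorhabditis elegans genome. They were chosen by their signal, the enrichment value that the authors deposited for each region: after sorting from the highest to the lowest, they are the regions that come directly after the deposited list of reproducible peaks, down to the last region at the highest deposited −log10 q-value. That list of reproducible peaks, called the IDR list below, passed the irreproducible discovery rate procedure, which compares the ranks of regions between replicates. It holds the top ranks of the same pooled list and none of the 3750. The other 23184 regions of the pooled list are called the lower ranks. Signal, rank and absence from the IDR list chose the members, so they are given as descriptions with no test.

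LIN-40 is a worm member of the metastasis-associated (MTA) protein family and a subunit of the nucleosome remodelling and deacetylase (NuRD) complex. NuRD joins a Mi-2 type ATPase that moves nucleosomes to a histone deacetylase, and it is known for keeping genes low and for its part in cell fate decisions, such as vulval development in the worm. MTA proteins carry a SANT domain and a GATA-type zinc finger, and NuRD is known to be brought to many genes by other DNA-binding proteins.

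The data are ChIP-seq, in which chromatin is fragmented, precipitated with an antibody and sequenced. The antibody recognised GFP, and the worms were of transgenic strain OP485, in which LIN-40 carries GFP-FLAG at the C-terminal end. Both samples were whole hermaphrodites at the young adult stage, 57.25 hours after starved L1 larvae were released from synchronization. They form 1 group of 2 biological replicates, numbered 3 and 4, and no other group or control library was analysed here. Because whole animals were used, a region bound weakly in all tissues and a region bound strongly in few cells cannot be told apart. The files give no read counts, so the depth is unknown, and exact 95% binomial intervals below cover counting error over regions or genes only.

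Signal ran from 99.9 down to 50.49 across the weaker regions, with a median of 67.11. The last 2 regions of the IDR list, at K10C3.4 and sprr-2, both had a signal of 99.97, and the first 2 weaker regions, at cone-1 and C01B10.3, both had 99.9. At the other end, the last 2 weaker regions, at spc-1 and K05B2.2, had 50.49, and the next 2, at sars-2 and W02D3.12, had 50.48. The deposited −log10 q-value was 4.135 for each of the 3750 regions and for the whole IDR list, and it was 3.657 for the sars-2 region. Of the weaker regions 3238 (86.35%) were exactly 464 bp wide, against 21.49% of the IDR list, which had a median width of 395.5 bp. The IDR list deposited for the older ce10 build holds 4635 regions, and matching by width, summit offset and signal placed 1559 of the 3750 members in it, none ranked below 4633 in the ce11 list. The 2172 matched members outside it ranked 4635 or lower, so membership of the ce10 list split the weaker regions by rank. A further 19 members had no match.

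The DNA at the summits shows what many of these regions hold. It is printed here for a few strong regions at promoters and at tRNA genes because the results on DNA words below turn on it. Each sequence is 101 bases of the plus strand of the RefSeq WBcel235 assembly, with the summit in the middle, and capitals mark the word named for each set, on either strand. The first 3 are weaker promoter regions with GAGAGA, a GA repeat.
ZC373.5 (chrX:10074383-10074483): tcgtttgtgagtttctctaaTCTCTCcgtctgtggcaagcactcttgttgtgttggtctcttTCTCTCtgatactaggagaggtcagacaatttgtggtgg
D2023.1 (chrV:11799604-11799704): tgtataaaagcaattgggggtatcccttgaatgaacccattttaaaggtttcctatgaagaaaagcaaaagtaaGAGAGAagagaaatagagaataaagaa
attf-3 (chrIII:86475-86575): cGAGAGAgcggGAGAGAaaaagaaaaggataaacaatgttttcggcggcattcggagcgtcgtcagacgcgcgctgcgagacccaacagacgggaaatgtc
The next pair holds CTGCGTCT, an 8-base word known from promoters of broadly expressed worm genes.
fbxa-77 (chrIII:1249362-1249462): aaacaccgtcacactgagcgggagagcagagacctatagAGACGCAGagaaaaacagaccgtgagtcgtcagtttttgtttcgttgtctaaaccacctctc
D1069.3 (chrII:347887-347987): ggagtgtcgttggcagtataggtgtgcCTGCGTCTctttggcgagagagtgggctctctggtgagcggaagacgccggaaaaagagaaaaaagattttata
A further pair holds CACGTG, the E-box word bound by basic helix-loop-helix proteins.
ZK1073.1 (chrX:16129034-16129134): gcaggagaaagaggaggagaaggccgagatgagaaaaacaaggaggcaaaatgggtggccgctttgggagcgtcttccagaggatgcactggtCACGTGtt
acs-17 (chrX:5942218-5942318): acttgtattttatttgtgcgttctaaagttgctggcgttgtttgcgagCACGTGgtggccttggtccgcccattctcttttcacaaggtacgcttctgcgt
The next pair lies over tRNA genes, where capitals mark GTTCGANNC, the B box that RNA polymerase III genes carry inside the gene.
tRNA gene Y43F4A.t1 (chrIII:13224547-13224647): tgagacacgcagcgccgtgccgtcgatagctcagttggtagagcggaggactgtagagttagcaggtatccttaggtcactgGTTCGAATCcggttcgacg
tRNA gene F52E10.t3 (chrX:16285301-16285401): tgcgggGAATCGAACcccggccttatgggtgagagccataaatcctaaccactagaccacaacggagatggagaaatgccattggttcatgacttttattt
The next 3 hold TGATAA, the core word of GATA factors, and this set was added after its share had been seen.
twk-25 (chrIV:11503780-11503880): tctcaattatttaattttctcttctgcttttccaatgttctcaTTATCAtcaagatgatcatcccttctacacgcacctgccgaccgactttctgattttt
bcc-1 (chrIV:11092855-11092955): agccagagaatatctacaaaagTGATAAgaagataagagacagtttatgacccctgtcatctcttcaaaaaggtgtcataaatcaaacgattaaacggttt
clec-150 (chrIII:1002646-1002746): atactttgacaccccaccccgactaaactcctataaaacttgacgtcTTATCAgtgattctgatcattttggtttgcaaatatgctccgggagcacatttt
The last is a promoter region with none of the 10 words searched within 100 bp of the summit.
C01B10.3 (chrIV:6622211-6622311): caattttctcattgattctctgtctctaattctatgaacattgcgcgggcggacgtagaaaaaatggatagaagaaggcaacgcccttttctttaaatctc

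These regions had a signal in both replicates, to different degrees. At ZC373.5 the signal was 35.47 for replicate 3 and 64.36 for replicate 4. The region at attf-3, which encodes an AT-hook protein, had 56 and 50.72, and that at fbxa-77, an F-box gene, had 50.25 and 49.92. The attf-3 and fbxa-77 regions thus had nearly equal values in the 2 samples, and the ZC373.5 region was higher in replicate 4. The D2023.1 region was the least even of those printed, at 17.01 and 77.48, and the nearest IDR summit was 199 bp away. Its counterpart in replicate 3 ranked only 12096 in that replicate's list. The regions at the 2 tRNA genes had 49.41 and 47.62 at Y43F4A.t1 and 45.67 and 46.47 at F52E10.t3.

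Promoter windows, from 1000 bp before to 200 bp after a protein-coding transcript start, held 1678 of the 3750 weaker summits (44.75%, exact 95% interval 43.15 to 46.36). The same windows held 54.63% of the IDR summits, 29.06% of summits of the lower ranks and 26.26% of positions on an even grid along the genome. When each replicate's own list was ranked and the same ranks taken, the share was 43.71% in replicate 3 and 45.01% in replicate 4. The weaker regions lay between the IDR list and the lower ranks, and their distance from either was larger than the difference between replicates. In coding sequence lay 209 weaker summits (5.573%, interval 4.861 to 6.356), against 2.12% of IDR summits, 15.11% of the lower ranks and 18.79% of the grid. In introns lay 716 (19.09%, interval 17.85 to 20.39), against 14.55%, 31.76% and 27.15%. Coding sequence and introns were thus less frequent than on the grid, though more frequent than in the IDR list.

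Intergenic summits numbered 918 (24.48%, interval 23.11 to 25.89), a share whose interval held that of the IDR list, 24.27%. The 114 summits in 3′ UTRs made 3.04% (interval 2.514 to 3.641), against 1.076% of the IDR list. Non-coding RNA genes outside all of these classes held 96 summits (2.56%), against 0.7948% of the grid. The median distance to the nearest protein-coding start was 869.5 bp for the weaker summits and 611 bp for the IDR summits, and 61.15% and 73.16% of them lay upstream of that start. Of the weaker promoter summits 214 (12.75%) lay in windows of genes on both strands, the arrangement of divergent promoters, against 25.61% of IDR promoter summits. In the same ranks of each replicate's own list this share was 13.3% and 14.87%, and in the top ranks, as many as the IDR list holds, it was 25.27% and 25.53%.

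**Figure D1:**
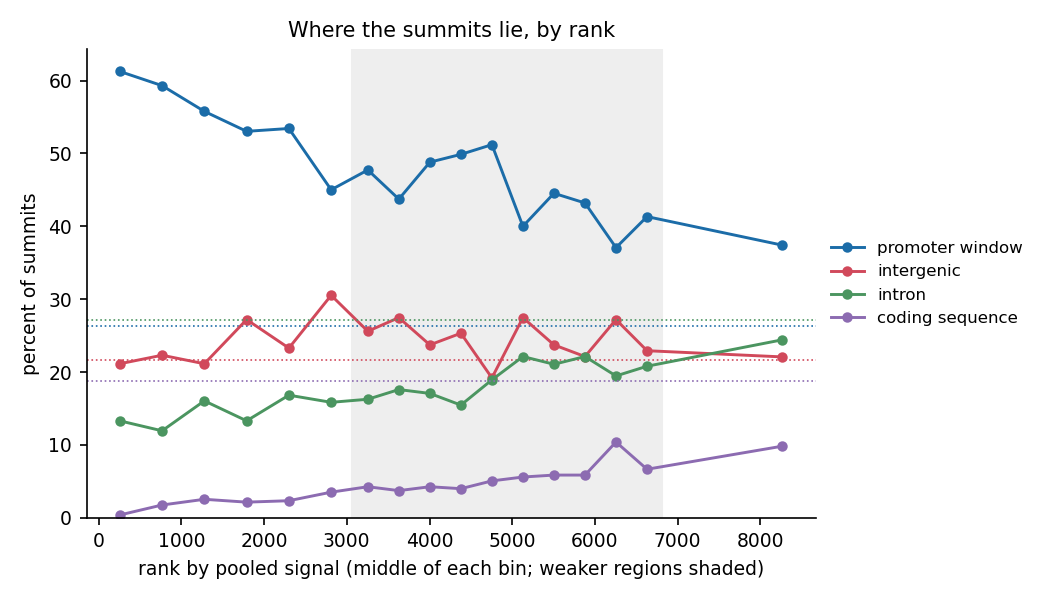
Percent of summits in promoter windows, intergenic DNA, introns and coding sequence (y axis) by rank of pooled signal (x axis), each point a bin of consecutive ranks, with the weaker regions shaded and dotted lines of the same colour at the share of an even genome grid. The promoter share was 61.25% in the strongest bin, 47.73% in the first shaded bin and 41.33% in the last, while the coding share was 0.3914%, 4.267% and 6.667%.

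The weaker regions were spread over all 6 chromosomes, with 602 on I, 571 on II, 622 on III, 564 on IV, 600 on V and 791 on X. The X chromosome held 44.64 weaker summits per Mb and the autosomes 35.84, a ratio of 1.245. The ratio was 1.284 in the same ranks of replicate 3, 1.188 in those of replicate 4, 1.417 in the IDR list and 1.189 in the lower ranks. The excess on X was thus present in both samples, smaller than in the IDR list and shared by the lower ranks.

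On the autosomes the arms, taken as everything outside the central 50% of each chromosome, held 25.27 weaker summits per Mb and the centre held 46.42, a ratio of 0.5444. The replicates gave 0.5352 and 0.5276, the IDR list 0.6158 and the lower ranks 0.6549. The ratio was lowest on V, at 0.3761, and highest on III, at 0.6631. On X the arms were the sparser part among the weaker regions and in the lower ranks, and slightly the denser part in the IDR list. The X arms held 349 weaker summits and the X centre 442, a ratio of 0.7896, with 0.792 and 0.8495 in the replicates' own lists. Of the IDR summits the X arms held 377 and the X centre 338, a ratio of 1.115, with 1.097 and 1.1 in the top ranks of the replicates' own lists. In the lower ranks the X ratio was 0.8393. The gap on X between the weaker regions and the IDR list was larger than that between replicates, although no test was made of it.

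**Figure D2:**
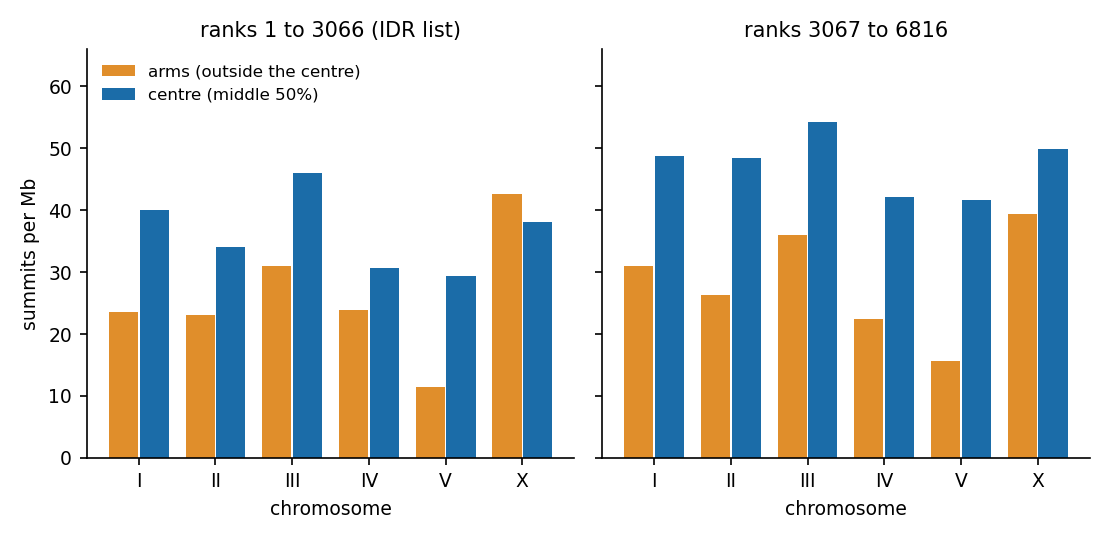
Summits per Mb (y axis) in the arms (orange) and centre (blue) of each chromosome (x axis), for the IDR list on the left and the weaker regions on the right. On X the arm bar was the taller in the IDR list, 42.55 against 38.15 per Mb, and the shorter among the weaker regions, 39.39 against 49.89 per Mb.

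Most weaker regions had some counterpart in each replicate, but many of the counterparts ranked low. A region of both replicates' full lists overlapped 3717 of the 3750 (99.12%). To count as found, a member had to overlap by at least 1 bp a region in the upper ranks of a replicate, which are as many as the IDR list and the weaker regions hold together. On that count 2139 (57.04%, interval 55.44 to 58.63) were found in both, 705 in replicate 3 alone, 727 in replicate 4 alone and 179 in neither. The same count gave 98.99% for the IDR list and 17.23% for the next 3750 regions. Pooled signal includes both samples, so these shares are descriptions. Within the weaker regions the share found in both was 97.07% in the strongest of 10 equal bins of rank and 17.6% in the weakest.

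**Figure D3:**
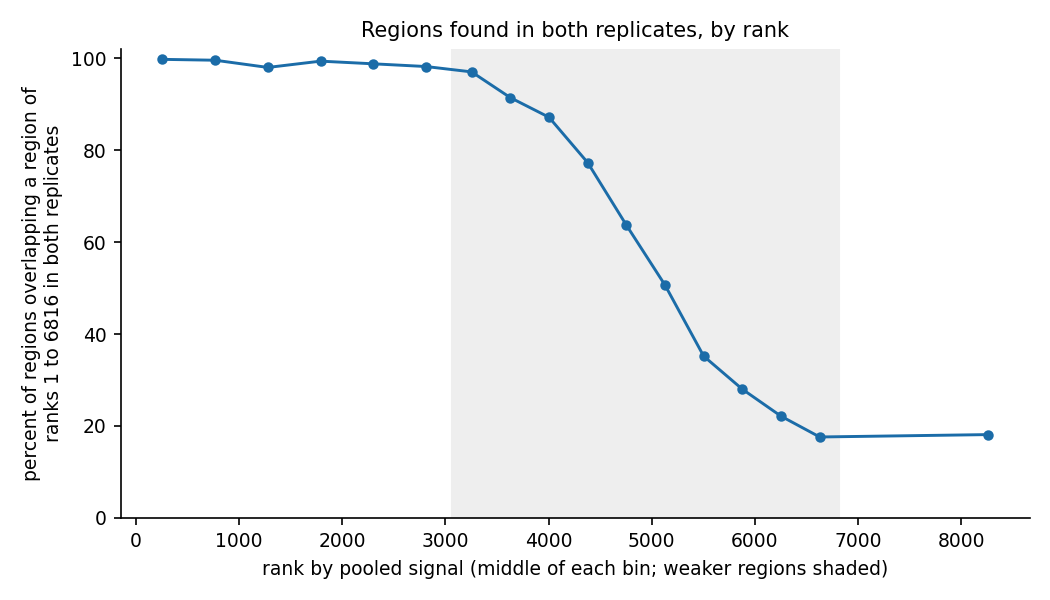
Percent of regions that overlapped a region in the upper ranks of both replicates (y axis) by rank of pooled signal (x axis), each point a bin of consecutive ranks, with the weaker regions shaded. The share stayed at 98.04% or more in the unshaded bins of the IDR list and dropped from 97.07% to 17.6% across the shaded band.

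A count that does not use the pooled ranking took the ranks of the weaker regions in 1 replicate and looked for them in the other. Of the 3750 regions so taken in replicate 3, 2308 (61.55%, interval 59.97 to 63.11) overlapped a region in the upper ranks of replicate 4. Of those taken in replicate 4, 2428 (64.75%, interval 63.19 to 66.28) did so in replicate 3. The corresponding shares were 94.88% and 95.89% for the top ranks and 14.47% and 16.18% for the lower ranks. Weaker regions of either sample were thus found in the other less often than its strongest regions and more often than its lower ranks. Part of these overlaps were with the top ranks of the other sample, 20.8% of the regions taken in replicate 3 and 23.09% of those taken in replicate 4. The same ranks of the other sample were overlapped by 40.75% and 41.65%. An overlapped top-ranked region can be a neighbouring peak, and this count was not repeated by nearest summit.

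Signal was modestly higher in replicate 4. The median over the weaker regions was 35.07 in replicate 3 and 40.95 in replicate 4, with a median ratio of 1.16, and the log2 ratio had a standard deviation of 0.65 over 3717 regions, against 0.39 in the IDR list. The signals of the 2 replicates had a Spearman rho of 0.3029 over the weaker regions and 0.8347 over the IDR list. These values take the strongest overlapping region of each replicate, and the relation rested on the 463 members near an IDR summit, where that region is often the neighbouring peak: rho was 0.016 over the other 3256 with a region in both. Taking the overlapping region with the nearest summit gave a rho of −0.058. By that measure, which for this share was chosen after seeing the data, 44.91% (interval 43.31 to 46.52) were found in both replicates. The band fixes pooled signal between narrow limits, and the median of pooled signal over the sum of the 2 replicates' signals was 0.9829, so a rise in 1 sample comes with a drop in the other by the way the members were chosen. The signals of single replicates for named regions, above and below, use the nearest summit.

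Among members found in the upper ranks of both replicates, those with the most unequal signals lay close to stronger peaks. The lowest ratios of replicate 4 to replicate 3 among members found in both were at pqn-41, with 385.7 in replicate 3 and 90.2 in replicate 4, klc-1, a kinesin light chain gene, with 220.9 and 54.93, and clec-126 with 96.08 and 31.63. The highest were at sor-1 with 39.76 and 342.3, F02E9.5 with 73.68 and 418.8, and hlh-30, which encodes a regulator of autophagy and lysosome genes, with 28.77 and 121.8. All 6 summits lay between 199 and 224 bp from an IDR summit, and the higher of the 2 values at pqn-41, klc-1, sor-1, F02E9.5 and hlh-30 exceeded the pooled signal of the member itself. A subset over 500 bp from any IDR summit was chosen after these values were seen. Among its members found in both replicates, the lowest ratios were nearest to cbs-1 (86.79 and 39.19), the collagen gene col-19 (71.18 and 33.32) and ivd-1 (64.88 and 32.82). The highest there were at osm-11 (28.73 and 76.69), D2030.3 (27.94 and 73.46) and cone-1 (28.02 and 73.61). Members outside the upper ranks of a replicate were left out of these rankings, and some over 500 bp away were more unequal. The rps-25 region, 5245 bp from an IDR summit, had 9.34 and 46.1, and that at mrpl-39, 16326 bp away, had 39.75 and 15.6.

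A minority of weaker regions flanked a stronger one at a nearly constant distance. Summits of 463 members (12.35%, interval 11.31 to 13.44) lay within 500 bp of an IDR summit, against 2.852% of grid positions. Their distances ran from 199 to 398 bp with a median of 202 bp, and 388 of them (83.8%) lay between 190 and 210 bp. The IDR summits that lay within 500 bp of one another showed the same spacing, with a minimum of 199 bp and a median of 203 bp, and so did the lower ranks within 500 bp of an IDR summit, with 199 and 202 bp and 87.83% between 190 and 210 bp. In none of these 3 sets did a summit lie closer than that minimum to another IDR summit, and the part of the peak calling in the spacing was not tested. In all, 130 members had exactly the interval of an IDR peak and differed from it only in their summit. In the same ranks of a single replicate's own list the share within 500 bp of an IDR summit was 19.39% for replicate 3 and 20.8% for replicate 4, which there includes regions at the IDR summit itself. At the other extreme, 1157 members (30.85%) lay over 10000 bp from any IDR summit, and the median distance was 4312.5 bp. The flanking members were 464 bp wide in 51.19% of cases, against 91.3% of the rest, held CTGCGTCT in 2.808% against 8.701%, and lay in the window of a tRNA gene in 5.616% against 2.434%. Whether they are separate sites was not tested.

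Of 19973 protein-coding genes, 1752 (8.77%) had a weaker summit in the promoter window, and 1979 had an IDR summit there. Both kinds stood at 340 genes, 19.41% of those with a weaker summit and 17.18% of those with an IDR summit. The weaker regions thus added 1412 genes with no IDR summit, and genes with either kind came to 3391 (16.98%). Counting all 46890 annotated genes, RNA genes included, 2962 (6.32%) had a weaker summit. The strongest weaker summit of each protein-coding gene had a median signal of 70.61 and lay at a median of −225 bp, and 84.76% of them were upstream of the start. Members of the gene lists below were chosen by name and not by signal, and one summit can lie in the windows of several genes.

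Among the strongest weaker promoter regions were genes of varied function. The region at −465 bp from pan-1, which encodes a leucine-rich repeat membrane protein, had 40.53 in replicate 3 and 56.93 in replicate 4. That at −886 bp from twk-25, a potassium channel gene, had 32.22 and 65.85, and that at cest-24, a carboxylesterase gene, had 29.45 and 70.13. These were higher in replicate 4 than in replicate 3, by more than the median ratio. At ZK858.6 the values were 51.85 and 51.46, at C01B10.3 49.53 and 54.68, at T10B11.5 37.62 and 59.69, and at W09D6.5 62.55 and 47.24. The K11H12.8 region also lay at −28 bp from the tRNA gene K11H12.t1 and had 20.32 and 50.74, so the 2 genes cannot be told apart there.

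Outside promoters, the strongest weaker regions lay in introns of cone-1 and of lron-13, a leucine-rich repeat gene (54.06 in replicate 3 and 47.27 in replicate 4). The strongest intergenic ones had their nearest starts at K12H6.12 (45.29 and 46.27), at pyc-1, which encodes pyruvate carboxylase (45.35 and 59.24), and at W04D12.1 (69.24 and 36.36). One lay in the coding sequence of lfe-2, an inositol trisphosphate kinase gene, with 45.14 and 51.94. The regions at K12H6.12, lron-13 and lfe-2 had close values in both samples.

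Some of the NuRD complex's own genes were among those with weaker summits. Of 10 genes of NuRD and of the related MEC complex, egl-27, hda-1 and chd-3 had a weaker summit (30%, interval 6.674 to 65.25). The interval holds the 8.77% of all protein-coding genes, and promoter windows of 500 and 100 bp gave 1 of 10. None of the 3 had an IDR summit. Of all protein-coding genes with a weaker summit, 19.41% had an IDR summit. lin-53, dcp-66 and mep-1 had IDR summits and no weaker one, while lin-40 itself, let-418, rba-1 and mbd-2 had neither. hda-1 encodes the histone deacetylase of the complex, and its region on chromosome V, at rank 3100, had a signal of 99.21, with 56.1 in replicate 3 and 45.4 in replicate 4; its summit was at −993 bp from the start, near the edge of the window. chd-3 encodes a Mi-2 type ATPase, and its region on X, at rank 6439, had 53.24, with 27.15 and 36.59, at −623 bp. In the same ranks of single replicates, egl-27 had a summit in both, while hda-1 and chd-3 had one in replicate 4 and not in replicate 3, and dcp-66 and mep-1 had one in replicate 3. A summit missing from these ranks can lie above or below them.

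egl-27, which encodes the other MTA protein of the worm, and vhp-1, which encodes a MAP kinase phosphatase, each had 5 weaker summits, more than any other protein-coding gene. At egl-27 they spanned chrII:6833820-6844760 (ce11) and fell at different ones of its 14 annotated starts. Their pooled signals were 96.42, 94.86, 68.9, 68.02 and 54.74. The strongest had 42.44 in replicate 3 and 58.59 in replicate 4, the next 51.55 and 46.65, and the weakest 51.06 and 24.01. The closest of them to an IDR summit was 1551 bp away. At vhp-1, with 6 annotated starts on the same chromosome, the signals were 93.53, 91.74, 89.77, 58.72 and 58.47, but the strongest 2 lay 201 and 202 bp from IDR summits. Y48G8AL.13 on chromosome I had 4 weaker summits, with signals from 59.04 to 99.09, beside 1 IDR summit. Of the other genes, 13 had 3 weaker summits, 142 had 2 and 1594 had 1.

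None of 14 synMuv B and DREAM genes, which are known for repressing germline and cell cycle genes and for a role in vulval development, had a weaker summit (0%, upper limit of the exact interval 23.16%, which holds the 8.77% of all protein-coding genes), while 6 had an IDR summit: efl-1, lin-9, lin-13, lin-35, lin-52 and lin-54. In replicate 4 alone, lin-9 had a summit in these ranks. Of 11 dosage compensation genes, 1 (9.091%, near the 8.77%) had a weaker summit in the pooled list and in replicate 3's own ranks and none in replicate 4's. It was dpy-30, which encodes a subunit of histone methyltransferase complexes, with 36.6 in replicate 3 and 59.86 in replicate 4.

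Housekeeping complexes differed in how their genes divided between the IDR list and the weaker regions. Of 33 proteasome genes, 10 (30.3%, interval 15.59 to 48.71) had a weaker summit and 11 others an IDR summit, with none having both. Among all protein-coding genes with a weaker summit, 19.41% also had an IDR summit, and the difference from that share was not tested. The same ranks of each replicate alone gave 10 and 10. The strongest was at pbs-3, a core particle subunit, with 52.11 in replicate 3 and 43.16 in replicate 4. The ubiquitin receptor gene rpn-13 had 26.78 and 61.91, and rpn-5, a lid subunit, had 40.61 and 50.86. Of 21 genes of the vacuolar ATPase, the proton pump of acidic compartments, 9 (42.86%, interval 21.82 to 65.98) had a weaker summit, 7 an IDR summit and 2 both, and single replicates gave 7 in replicate 3 and 6 in replicate 4. At vha-10 the values were 32.5 and 53.46, at vha-16 29.95 and 51.47, and at vha-11 40.12 and 29.84. Both lists stood above the 8.77% of all protein-coding genes in the pooled list and in each replicate.

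The lists of protein synthesis genes divided unequally between the IDR list and the weaker regions. Of 81 cytoplasmic ribosomal protein genes, 9 (11.11%, interval 5.208 to 20.05) had a weaker summit and 56 (69.14%) an IDR summit, so the weaker share was near the 8.77% of all genes. The strongest were at rpl-30, with 50.92 in replicate 3 and 42.88 in replicate 4, and rps-9, with 32.96 and 57.98. rpl-36 and rps-14 shared 1 weaker summit, 202 bp from an IDR summit. Of 70 mitochondrial ribosomal protein genes, 10 (14.29%, interval 7.069 to 24.71, which holds the 8.77%) had a weaker summit and 17 an IDR summit. Of 42 translation factor genes, 11 (26.19%, interval 13.86 to 42.04) had a weaker and 19 an IDR summit, with 9 and 12 weaker ones in the replicates' own ranks. The eef-1B.1 gene, for a subunit of elongation factor 1, had 56.61 and 44.51. Of 32 aminoacyl-tRNA synthetase genes, which charge tRNAs, 8 (25%, interval 11.46 to 43.4) had a weaker and 4 an IDR summit, with 7 and 8 in the replicates. At vars-1 the values were 33.67 and 59.44, and at cars-1, which had 3 weaker summits, 37.79 and 46.28.

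Respiratory chain genes had 8 of 51 with a weaker summit (15.69%) and 23 with an IDR summit, and chaperones had 9 of 65 (13.85%) and 26. The exact intervals, 7.024 to 28.59 and 6.532 to 24.66, both hold the 8.77% of all protein-coding genes. SR and core splicing factors had 3 of 32 (9.375%, near that share) against 16 with an IDR summit, although replicate 4's own ranks gave 1 and replicate 3's gave 7. The strongest respiratory chain regions, at cox-5B and cox-6A, lay 203 and 201 bp from IDR summits of rank 157 and 273, while isp-1, an iron-sulfur subunit of complex III, had 34.16 and 45.86 with no IDR summit near.

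**Figure D4:**
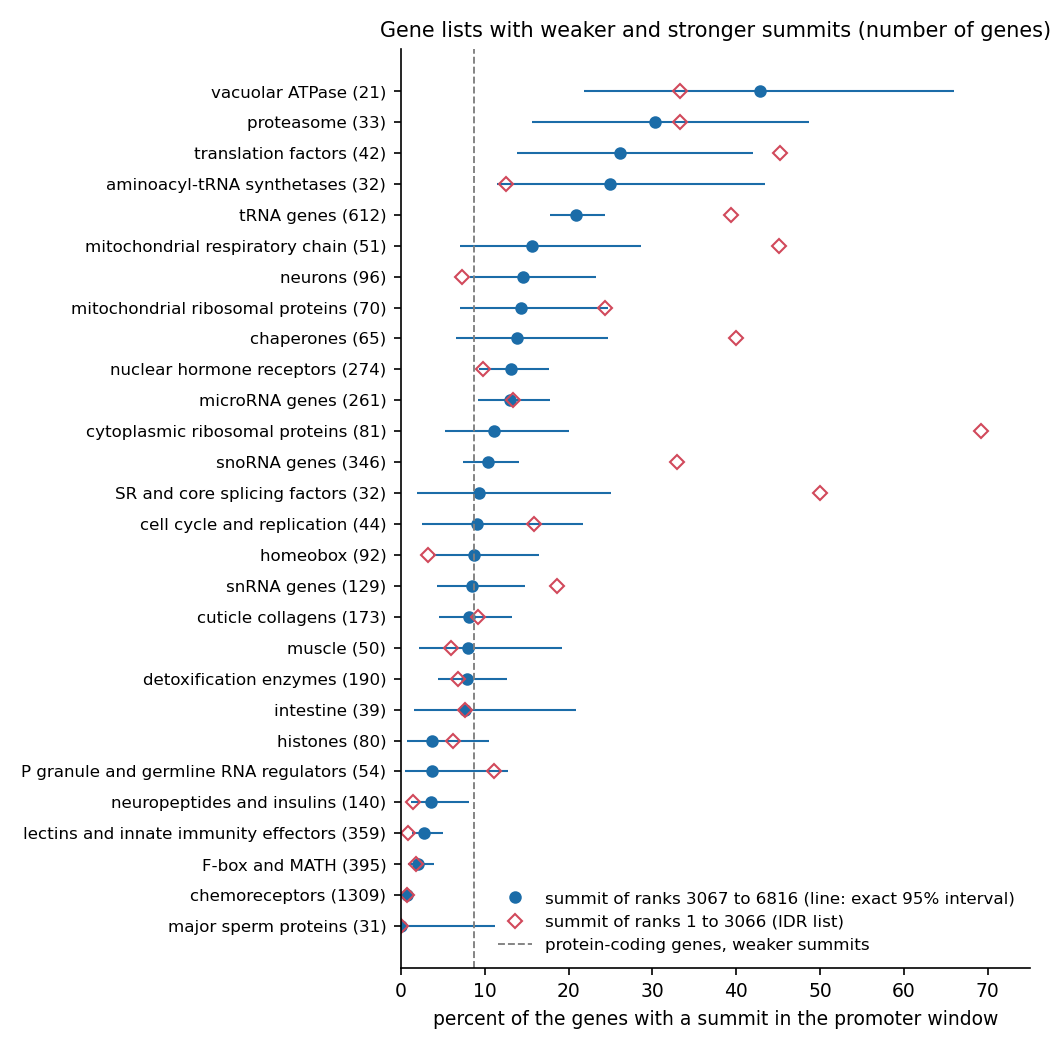
Percent of the genes of each list (x axis; the number of genes after the name) with a summit in the promoter window, as filled circles for the weaker regions with exact 95% intervals and as open diamonds for the IDR list, and a dashed line at the weaker share of all protein-coding genes. Cytoplasmic ribosomal protein genes show the widest gap, 11.11% against 69.14%, and in several lists, among them vacuolar ATPase, aminoacyl-tRNA synthetase, neuron and nuclear hormone receptor genes, the circle lies to the right of the diamond. Lists of fewer than 20 genes are not drawn.

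Of 274 nuclear hormone receptor genes, ligand-regulated transcription factors that are numerous in the worm, 36 (13.14%, interval 9.375 to 17.72) had a weaker summit, against 8.77% of all protein-coding genes, and 27 had an IDR summit. Replicate 3's own ranks held 27, which is 9.854% and near the share of all protein-coding genes, and replicate 4's held 38 (13.87%). The regions at nhr-1 had 47.21 in replicate 3 and 56.44 in replicate 4, at nhr-88 61.54 and 37.46, at nhr-85 43.62 and 54.44, and at nhr-62 55.93 and 39.16. Of 92 homeobox genes 8 (8.696%) had a weaker and 3 an IDR summit, but the replicates' own ranks held 4 and 6. The neuronal homeobox gene unc-42 had 20.42 and 63.99, lim-8 had 35.62 and 47.39, and ceh-5 had 59.39 and 22.55. The homeobox share was that of all protein-coding genes.

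Of 96 neuronal genes, 14 (14.58%, interval 8.208 to 23.26, which holds the 8.77% of all protein-coding genes) had a weaker summit and 7 an IDR summit. This count depended on pooling, since replicate 3's own ranks held 7 and replicate 4's held 9. The region at unc-104, which encodes the kinesin that carries synaptic vesicle precursors, had 46.39 in replicate 3 and 54.9 in replicate 4. unc-18, needed for vesicle fusion, had 40.76 and 44.48, and mec-12, an alpha-tubulin gene of touch neurons, had 34.8 and 36.3. The shares of the next 2 lists were near the 8.77%. Of 50 muscle genes 4 (8%) had a weaker summit, with 7 and 5 in the replicates, and pat-4, which encodes an integrin-linked kinase, had 40.98 and 42.11 and unc-45, a myosin chaperone gene, 44.96 and 33.39. Of 39 intestinal genes 3 (7.692%) had one, with 6 in each replicate's own ranks. act-5, an actin of the intestine that the name-based muscle list also took in, had 24.2 and 38.09, and cpl-1, a cathepsin L gene, 38.9 and 33.97.

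Of 6 vitellogenin genes, for the yolk proteins made in the adult intestine, 2 (33.33%, interval 4.327 to 77.72) had a weaker summit. The interval holds the 8.77% of all protein-coding genes, and 2 other vitellogenin genes had an IDR summit. The weaker summits were at vit-5 with 52.68 in replicate 3 and 34.11 in replicate 4, and at vit-4 with 17.01 and 40.32. Vitellogenin genes share much sequence, so reads can be split among them. Of 173 cuticle collagen genes 14 (8.092%) had a weaker summit, led by col-94 with 40.31 and 57.89 and col-62 with 35.09 and 57.31. Detoxification enzymes had 15 of 190 (7.895%), led by the glutathione transferase gene gst-5 with 51.38 and 44.68. The collagen and detoxification shares were close to that of all genes. P granule and germline RNA genes had 2 of 54 (3.704%, interval 0.4517 to 12.75), mut-2 and mex-1. Cell cycle and replication genes had 4 of 44 (9.091%, interval 2.533 to 21.67), and histone genes 3 of 80 (3.75%, interval 0.7801 to 10.57). These 3 intervals all hold the 8.77% of all protein-coding genes. The histone gene his-72 had 42.39 and 46.72.

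Several large gene families had weaker summits less often than all protein-coding genes. Weaker summits stood at 10 of 1309 chemoreceptor genes (0.7639%, interval 0.3669 to 1.4), 8 of 395 F-box and MATH genes (2.025%), 10 of 359 lectin and innate immunity genes (2.786%) and 5 of 140 neuropeptide and insulin genes (3.571%), against 8.77% of all protein-coding genes. None of 31 major sperm protein genes had one (upper limit of the exact interval 11.22%, which holds the 8.77%). Small counts moved by over 1.5 times in single replicates: vitellogenins to 4 in replicate 3, and in replicate 4 cell cycle genes to 2, neuropeptide and insulin genes to 8, and snRNA genes, described next, to 7. Among the few were nlp-29, which encodes an antimicrobial peptide despite its name (27.02 in replicate 3 and 54.66 in replicate 4), and spp-5, a saposin-like gene (36.64 and 43.59).

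Of 612 tRNA genes 128 (20.92%, interval 17.76 to 24.36) had a weaker summit, against 6.32% of all genes, and 241 had an IDR summit, with 43 having both. Single replicates gave 122 and 135, and 94 remained in the count when members within 500 bp of an IDR summit were left out. Of the 106 members in tRNA windows, 74 (69.81%) had their summit within 150 bp of the start of the gene. That share was 95.52% in the IDR list and 40.71% in the lower ranks. On X lay 52 of the 106, a part similar to that in the other bands, with 108 of 201 in the IDR list and 67 of 140 in the lower ranks. The B box word lay at 50.94% of the 106 members. Of 346 snoRNA genes 36 (10.4%) had a weaker and 114 an IDR summit, and of 129 snRNA genes 11 (8.527%, interval 4.334 to 14.75, which holds the 6.32%) and 24.

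Of 261 microRNA genes 34 (13.03%, interval 9.193 to 17.73) had a weaker summit, against 6.32% of all genes, and 35 an IDR summit. Replicate 3's own ranks held 30 and replicate 4's 20, which is 7.663% and nearer the share of all genes. The region at cel-mir-2216 had 30.31 in replicate 3 and 62.01 in replicate 4. cel-mir-73 and cel-mir-74, a cluster on X, shared a region with 43.41 and 59.58, and cel-mir-51 had 36.64 and 56.64. These 3 regions were all higher in replicate 4.

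The DNA within 100 bp of the summits was searched for 10 words on both strands, and the share of all 201 bp windows of the genome that hold each word is given beside it. Words of the strongest regions became less frequent across the weaker ones. GAGAGA lay at 1147 weaker summits (30.59%, interval 29.11 to 32.09), at 41.26% of IDR summits, at 15.7% of the lower ranks and in 9.994% of genome windows. CTGCGTCT lay at 299 (7.973%, interval 7.126 to 8.887), against 13.34%, 1.937% and 1.058%. CACGTG lay at 290 (7.733%, interval 6.898 to 8.635), against 10.27%, 4.085% and 3.333%. The same ranks of the replicates' own lists gave 30.61% and 30.05% for GAGAGA, 7.147% and 7.707% for CTGCGTCT, and 6.933% and 7.627% for CACGTG, so each weaker share lay below that of the IDR list by more than the difference between replicates. GTTCGANNC, the B box word of tRNA genes, lay at 103 (2.747%, interval 2.247 to 3.321), against 5.936%, 1.592% and 1.534%, with 2.453% and 2.747% in the replicates' own ranks.

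TGATAA, the GATA factor word, ran the other way. It lay at 935 weaker summits (24.93%, interval 23.56 to 26.35), at 17.87% of IDR summits, at 19.04% of the lower ranks and in 17.94% of genome windows. The replicates' own ranks gave 23.63% and 24.16% against 17.61% and 17.81% for their top ranks. Along the pooled ranking the share was 9.002% in the strongest of 6 equal bins of the IDR list and 24.46% in the weakest, and among the 10 bins of the weaker regions it was 29.07% in the highest, which holds ranks 4192 to 4566, and 23.2% in the last. In promoter windows it was 26.82% of weaker summits and 15.64% of IDR summits, while in introns it was 24.02% and 19.28%. In intergenic DNA it was 24.29% and 22.45%, with overlapping intervals, and in coding sequence it was lower at weaker summits, 19.14% of 209 against 21.54% of 65, also with overlapping intervals. GATA factors are known as the main regulators of intestinal genes in the worm, and a match is a description of letters and not a binding site.

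Base composition moved with rank. The mean GC content of the 201 bp windows was 39.22% at weaker summits, with 39.42% and 38.7% in the replicates' own ranks, against 42.98% at IDR summits, 36.3% at the lower ranks and 35.44% in the genome. Among windows under 40% GC, TGATAA lay at 31.56% of weaker summits (interval 29.62 to 33.55), 29.22% of IDR summits (interval 26.57 to 31.97), 21.94% of the lower ranks and 20.11% of genome windows. In windows of 40% GC or more the shares were 15.5%, 11.29%, 11.74% and 11.53%. Within the low-GC windows the intervals of the weaker and IDR shares overlapped, and in the others they did not.

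**Figure D5:**
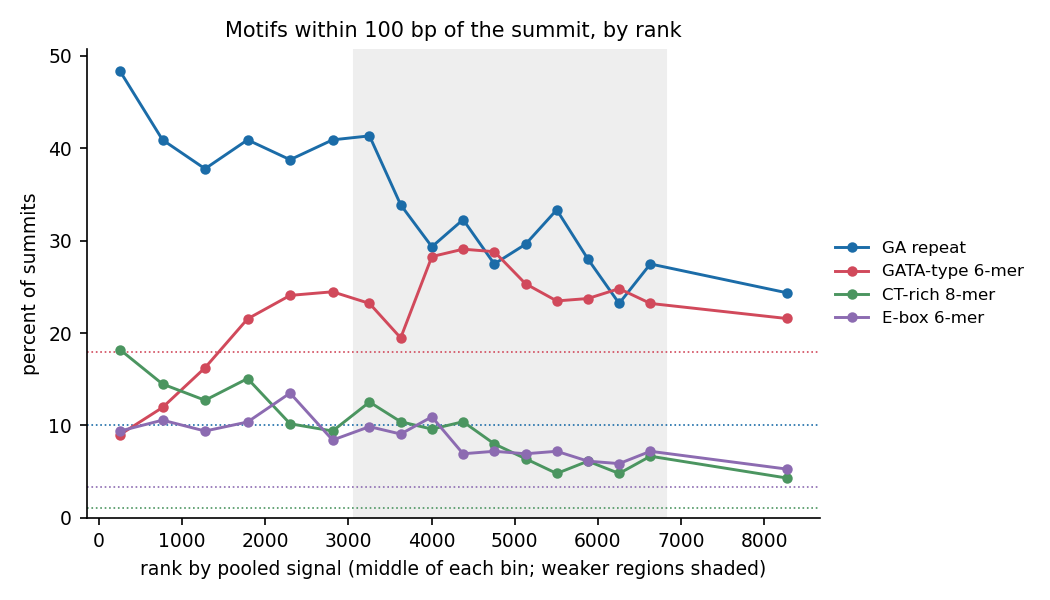
Percent of summits with a word within 100 bp (y axis) by rank of pooled signal (x axis), each point a bin of consecutive ranks, with the weaker regions shaded and dotted lines at the share of genome windows. The CT-rich word is CTGCGTCT. The GA repeat was at 48.34% in the strongest bin and 27.47% in the last shaded one, while the GATA-type word was at 9.002% and 23.2%.

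For the other 5 words the values were as follows in weaker summits, IDR summits and genome windows. AGGTCA, a nuclear receptor half-site, lay at 6.48% of weaker summits, 5.773% of IDR summits and 4.816% of genome windows. CNCCGCCC, an SP1-like word, lay at 3.227%, 4.175% and 1.364%. The homeodomain word TAATTA lay at 6.347%, 4.827% and 9.32%, the heat shock factor word TTCNNGAA at 10.51%, 8.35% and 13.92%, and CCAAT at 32.91%, 29.84% and 36.68%, so these last 3 were less frequent at weaker summits than in the genome. None of the 10 words was found at 774 weaker summits (20.64%), against 18.43% of the IDR list and 28.79% of the lower ranks.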

How the data were processed

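The authors deposited, for the ce11 and ce10 builds, a list of 30000 candidate regions per replicate and for both samples pooled, and an IDR list, in narrowPeak layout. The deposited files have no header line, and the signal value and −log10 q-value of each region were read from the columns where the narrowPeak layout puts them. The aligner, the caller and the IDR threshold: not given in the sources used here. Depth is unknown. The pooled list was ranked by signal, ties by chromosome and summit, and ranks 3067 to 6816 were taken, set beside ranks 1 to 3066, which are the IDR list. Members, gene lists and DNA words were chosen with earlier results of these data known.

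Summits were placed in the Ensembl release 115 annotation of WBcel235, which has the chromosome names of ce11 and lengths that no region exceeds. Classes were assigned in this order: promoter window; UTR upstream of the coding sequence; coding sequence; UTR downstream of it; intron; RNA gene; pseudogene; none of these (intergenic). Of 2778 genes without a name, 2773 took one from RefSeq by WormBase ID. Gene lists (32) were built from symbols or biotypes, and the ce10 lists were used without converting coordinates; members were matched to them by chromosome, width, summit offset and signal within 0.1%. Named genes were those nearest the 12 strongest promoter summits and the 6 strongest others, and up to 4 of the strongest per list. All NuRD, MEC, synMuv B and DREAM members and the regions at the edges of the band were also named. So were the 3 highest and 3 lowest replicate ratios among members found in both replicates, and the 3 genes with most summits. A few further genes were picked after values were seen. The 101 bp length of printed sequences and the 150 bp distance for tRNA genes were also set after the files were read. With 1 group of 2 samples no test between conditions was possible, so shares carry exact (Clopper-Pearson) intervals and are set beside each replicate's own list. Numbers 3 and 4 are biological replicates per the labels. Other columns of per-sample values numbered 0. Scripts were tested on simulated regions and used Python 3.11.15, pandas 2.3.3, numpy 2.4.6, SciPy 1.17.1 and matplotlib 3.10.9.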

Additional observations from a re-analysis of the deposited data

How the results depend on the processing

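Depth is unknown, and the spread between 2 replicates is small for some shares, so that values beyond it need not differ by much. No paired analysis was possible because both samples belong to 1 group. Of the alternative values, 30 lay within the spread between replicates or the interval of the reported value and 71 beyond it, and among 204 for other lists and words 95 and 109. Taking each replicate's own ranks gave promoter shares of 43.71% to 45.01%, intergenic 23.65% to 23.97%, intron 19.55% to 19.57%, coding 5.493% to 6.853%, autosomal arm ratios of 0.5276 to 0.5352, X arm ratios of 0.792 to 0.8495, 19.39% to 20.8% within 500 bp of an IDR summit, 11.11% to 12.35% of ribosomal protein genes, 8.602% to 9.137% of protein-coding genes, 19.93% to 22.06% of tRNA genes, GC of 38.7% to 39.42%, GAGAGA 30.05% to 30.61%, CTGCGTCT 7.147% to 7.707%, CACGTG 6.933% to 7.627%, TGATAA 23.63% to 24.16% and X to autosome ratios of 1.188 to 1.284. The stronger 50% of the ranks gave 48.27% promoter, 17.07% intron, 4.267% coding, an arm ratio of 0.5598, 83.36% found in both replicates, a Spearman correlation of 0.065, 13.44% near an IDR summit, 5.042% of protein-coding, 3.704% of ribosomal protein and 12.42% of tRNA genes, GAGAGA 32.85%, CTGCGTCT 10.19%, CACGTG 8.8% and TGATAA 25.76%; it holds fewer summits, which lowers gene counts. Leaving out members near an IDR summit gave 24.25% intergenic, 19.93% intron, an arm ratio of 0.5386, 51.29% found in both, a Spearman correlation of 0.016, 7.62% of protein-coding, 8.642% of ribosomal protein and 15.36% of tRNA genes, GAGAGA 31.27%, CTGCGTCT 8.701% and TGATAA 25.43%. Promoter windows of 500 and 100 bp gave 31.76% promoter, 30.32% intergenic, 23.07% intron, 7.28% coding, and 6.243%, 9.877% and 14.54% of protein-coding, ribosomal protein and tRNA genes; those of 2000 and 200 bp gave 60.51%, 16.16%, 14.59%, 4.4%, 12.1%, 14.81% and 25.16%. Windows of 50 bp either side of the summit gave GC of 40.22%, GAGAGA 18.29%, CTGCGTCT 4.987%, CACGTG 3.893% and TGATAA 14.64%, the last against 9.263% of IDR summits and 9.351% of genome windows of that length. The X to autosome ratio was 1.688 per protein-coding gene; a centre of 60% gave an autosomal arm ratio of 0.5663 and an X ratio of 0.6891. The share found in both replicates was 46.56% with a reciprocal overlap of 50%, 99.12% with any of the 30000 regions, 37.71% with summits at most 100 bp apart and 44.91% by nearest summit. The Spearman correlation of replicate signal by nearest summit was −0.058, a change of sign, and 17.41% lay within 1000 bp of an IDR summit. The ce10 lists gave values within the spread for all 6 results they were used for. The nearest-summit share and all TGATAA and X arm alternatives were added after seeing the data.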
